A study of Mus musculus with 8 samples.

Results

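The proteasome subunit and assembly genes were taken as the protein-coding genes of the RefSeq table of the mouse genome (build GRCm38.p6) whose symbol begins with Psma, Psmb, Psmc, Psmd, Psme, Psmf or Psmg followed by a digit. The rule took 51 of 21887 protein-coding genes. Of these, 43 were constitutive: 7 alpha-ring and 7 beta-ring subunits of the core, 6 ATPases and 11 non-ATPase subunits of the regulatory particle, 3 chaperones of its base, 4 activators, 1 inhibitor and 4 chaperones of the core. The others were 3 immune subunits (Psmb8, Psmb9, Psmb10), 2 tissue-specific subunits (Psma8, Psmb11) and Psme2b, a copy of the activator gene Psme2. The rule also took 2 genes that code for no part of the proteasome: Psmc3ip, a meiotic recombination factor named after a partner protein, and Psme3ip1.

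The proteasome is the chamber in which cells cut up proteins tagged with ubiquitin. Stacked alpha and beta rings form the core, the ATPases of the regulatory particle unfold the substrate and feed it in, and dedicated chaperones put the rings and the base together. Because every cell needs it, its subunits are held to be expressed everywhere, whereas the immune subunits replace the constitutive catalytic ones after interferon and serve the making of peptides for MHC class I. Trimethylation of histone H3 at lysine 27 (H3K27me3), written by Ezh2 and erased by Utx and Jmjd3, is known as a mark of silenced genes, so constitutive proteasome genes are not textbook targets of it.

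H3K27me3 was mapped by chromatin immunoprecipitation followed by sequencing in chondrocytes from mouse cartilage, kept in DMEM medium with serum per the labels. The 4 genotypes were wild type and chondrocytes with a conditional knockout (cKO) of Ezh2, Utx or Jmjd3, and the stated purpose was to compare the mark between them. Each genotype had 1 immunoprecipitated library and 1 input library, 8 in all, so no difference between genotypes has a replicate check and no test between them was made. The Cre driver, the strain, the age and sex of the mice and any allele that wild type shares with the knockouts were not stated in the sources used here.

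The immunoprecipitated libraries held 25655346 to 34786292 fragments and the inputs 16599532 to 24041619. The authors' peak lists held 28057 peaks for wild type and 33739, 49405 and 27013 for the Ezh2, Utx and Jmjd3 knockouts. The library titles carry 3 different prefixes, shared only by Utx-cKO and Jmjd3-cKO, so whatever the prefix stands for cannot be told apart from genotype in the other comparisons. All 10 chondrocyte marker genes had a peak in each list. Of the markers of other cells, 1 to 4 of 7 haematopoietic, 1 of 4 endothelial, at most 1 of 4 germ-cell and at most 2 of 3 thymic epithelial genes had one. A peak near a gene does not show its expression, so this does not check the cell type.

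A gene counted as marked if any peak reached to within 2 kb of an outer end of the gene in the gene table. Where 4 values follow each other below, they are those of wild type and then of the Ezh2, Utx and Jmjd3 knockouts, unless named. Marked members numbered 46, 47, 48 and 46 of 51, and the same call took 62.3%, 64.5%, 67.7% and 63.0% of all protein-coding genes. In wild type that was 90.2% of the members, with a 95% Wilson interval of 79.0% to 95.7%; such intervals cover counting error only. The constitutive members alone gave 41, 41, 42 and 41 of 43, the wild-type share being 95.3% (84.5% to 98.7%). Ezh2-cKO, where the writer named above is knocked out, thus marked as many constitutive members as wild type. Its list was also the longer, with 33739 peaks against 28057. How far the peaks reflect the mark itself was not tested. Of all genes, 60.4% were marked in all 4 lists and 31.1% in none. Members marked in none were Psmf1 and Psme2b, and those marked in some lists but not all were Psma6, Psma8 and Psmb11. Keeping only peaks enriched at least 4-fold over the input, which held for 51.2%, 53.8%, 58.1% and 54.9% of all genes, left 41, 40, 41 and 41 constitutive members.

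For a gene's strongest peak, a rank percentile is given below: the percentage of marked genes in the same list whose fold enrichment is no higher, so that 50 is the middle. The authors computed fold enrichment for each peak against the matching input, and it was compared only within a list. The median percentile of marked constitutive members was 70.5, 66.0, 66.0 and 58.9. Those lists differ in length, so a percentile that differs between lists does not by itself show a change. When ranks were taken instead among the 13210 genes marked in all 4 lists, the medians were 69.7, 63.8, 62.8 and 57.2, above the middle in each list and nearest to it in Jmjd3-cKO. In wild type the members ran from 19.95 (Psmd10) to 96.9 (Psmd6).

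**Figure D1:**
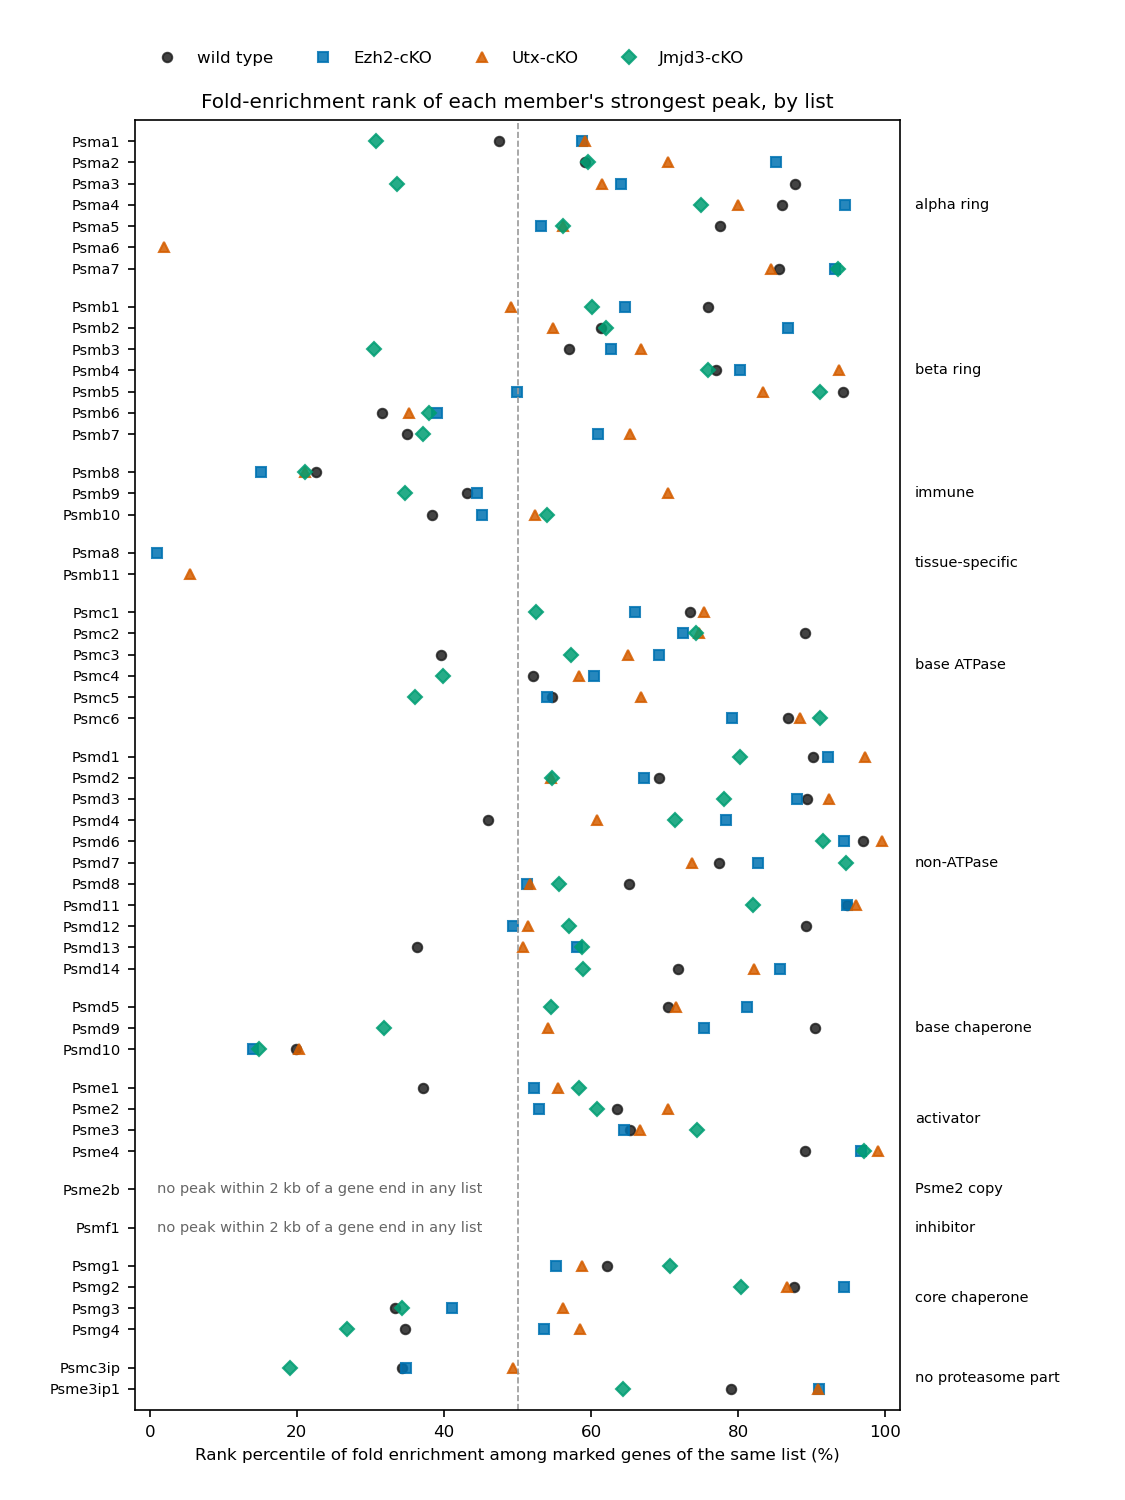
Rank percentile of the fold enrichment of each member's strongest peak (x axis, %, among marked genes of the same list), 1 symbol per list, with members grouped by role and the dashed line at 50. The constitutive members fill the range from the low to the top ranks, Psmb8 and Psmd10 sit low in all 4 lists, and Psma8, Psmb11 and Psma6 have a symbol in 1 list each.

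Of the alpha ring, whose subunits form the gate of the core, 6 of 7 were marked in wild type, and the median percentile of its marked genes was 81.5, 74.6, 61.5 and 57.9. Taken from the peaks at the RefSeq starts of all 7 genes, on the same scale, the medians were 77.5, 85.1, 70.5 and 67.2. Psma7, which the testis subunit Psma8 replaces, stood at 85.5, 93.2, 84.4 and 93.6. Its peak measured 3344, 4845, 6635 and 3782 bp, longest in Utx-cKO, and it lay over a start 19 bp from the end of Ss18l1.

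Psma6 was the alpha subunit without a peak at its outer ends, and its RefSeq starts lie far apart. RefSeq gives it a start at position 55384222 of chromosome 12, on the plus strand, and another further in, at 55398825. A peak spanned the inner start in all 4 lists, with lengths of 3104, 2738, 3457 and 3125 bp and fold enrichments of 5.95, 9.60, 10.58 and 9.74. At the outer start only the Utx-cKO list held a peak, 675 bp long with a fold enrichment of 2.67, and it began just past the start. The windows around both starts are printed to show how they differ, from 250 bases before the start to 50 from it, with each CpG in capitals, from RefSeq on GRCm38.p6 at chr12:55383972-55384271 and chr12:55398575-55398874, plus strand. They hold 3 and 22 CpG.
Psma6 outer start: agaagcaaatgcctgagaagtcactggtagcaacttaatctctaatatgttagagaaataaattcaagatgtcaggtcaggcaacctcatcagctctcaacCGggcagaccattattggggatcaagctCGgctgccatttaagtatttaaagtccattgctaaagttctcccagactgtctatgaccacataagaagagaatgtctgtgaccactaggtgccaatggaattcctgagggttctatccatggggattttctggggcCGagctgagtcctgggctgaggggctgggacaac
Psma6 inner start: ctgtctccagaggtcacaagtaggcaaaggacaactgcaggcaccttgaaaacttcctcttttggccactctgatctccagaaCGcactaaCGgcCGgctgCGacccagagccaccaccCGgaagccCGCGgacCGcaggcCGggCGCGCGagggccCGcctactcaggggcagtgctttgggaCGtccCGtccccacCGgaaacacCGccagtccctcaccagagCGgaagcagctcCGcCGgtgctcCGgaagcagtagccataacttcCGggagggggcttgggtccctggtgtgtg

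Psmf1, the inhibitor of the core, gave the same picture. Its outer end lies 2889 bp beyond its RefSeq start, at 151741310 on chromosome 2, minus strand, so that no peak fell within 2 kb of the gene ends. At the RefSeq start a peak was present in every list, 1448, 1235, 1973 and 1605 bp long with fold enrichments of 7.48, 8.49, 11.24 and 9.13. Its window (chr2:151741261-151741560, minus strand, printed as above with CpG in capitals) holds 18 CpG.
Psmf1 start: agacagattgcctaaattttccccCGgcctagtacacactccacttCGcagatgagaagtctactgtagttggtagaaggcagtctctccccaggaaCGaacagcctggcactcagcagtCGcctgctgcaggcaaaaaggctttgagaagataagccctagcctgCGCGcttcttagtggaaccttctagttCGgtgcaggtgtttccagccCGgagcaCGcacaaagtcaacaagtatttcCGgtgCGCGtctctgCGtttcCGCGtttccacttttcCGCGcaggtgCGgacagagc

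Psma3 differed in another way, since it had a peak at the gene-table end, 70969283 on chromosome 12, and at its RefSeq start, 70974623. The peak at the gene-table end stood at rank percentiles of 87.7, 64.1, 61.5 and 33.7, with fold enrichments of 9.89, 8.41, 9.80 and 6.43 in the lists' own scales. The peak over the start stood at 89.8, 92.8, 93.5 and 94.8, with 10.29, 12.32, 14.75 and 16.07, high in every list. Values by outer ends belong to the first of these peaks, since the start lies beyond 2 kb of either end. Other members whose value by outer ends came from a peak elsewhere than at the start were Psma6 in Utx-cKO, Psmb11 in Utx-cKO and Psmc6 in Ezh2-cKO and Jmjd3-cKO, among members with a known start. RefSeq starts were known for 36 of the 43 constitutive members, and all 36 had a peak within 2 kb of one in every list. The same call took 62.2%, 63.9%, 66.5% and 62.8% of the 17492 genes with a known start. A gap at Psma6 and Psmf1 in the count by outer ends was therefore no gap at a start.

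**Figure D2:**
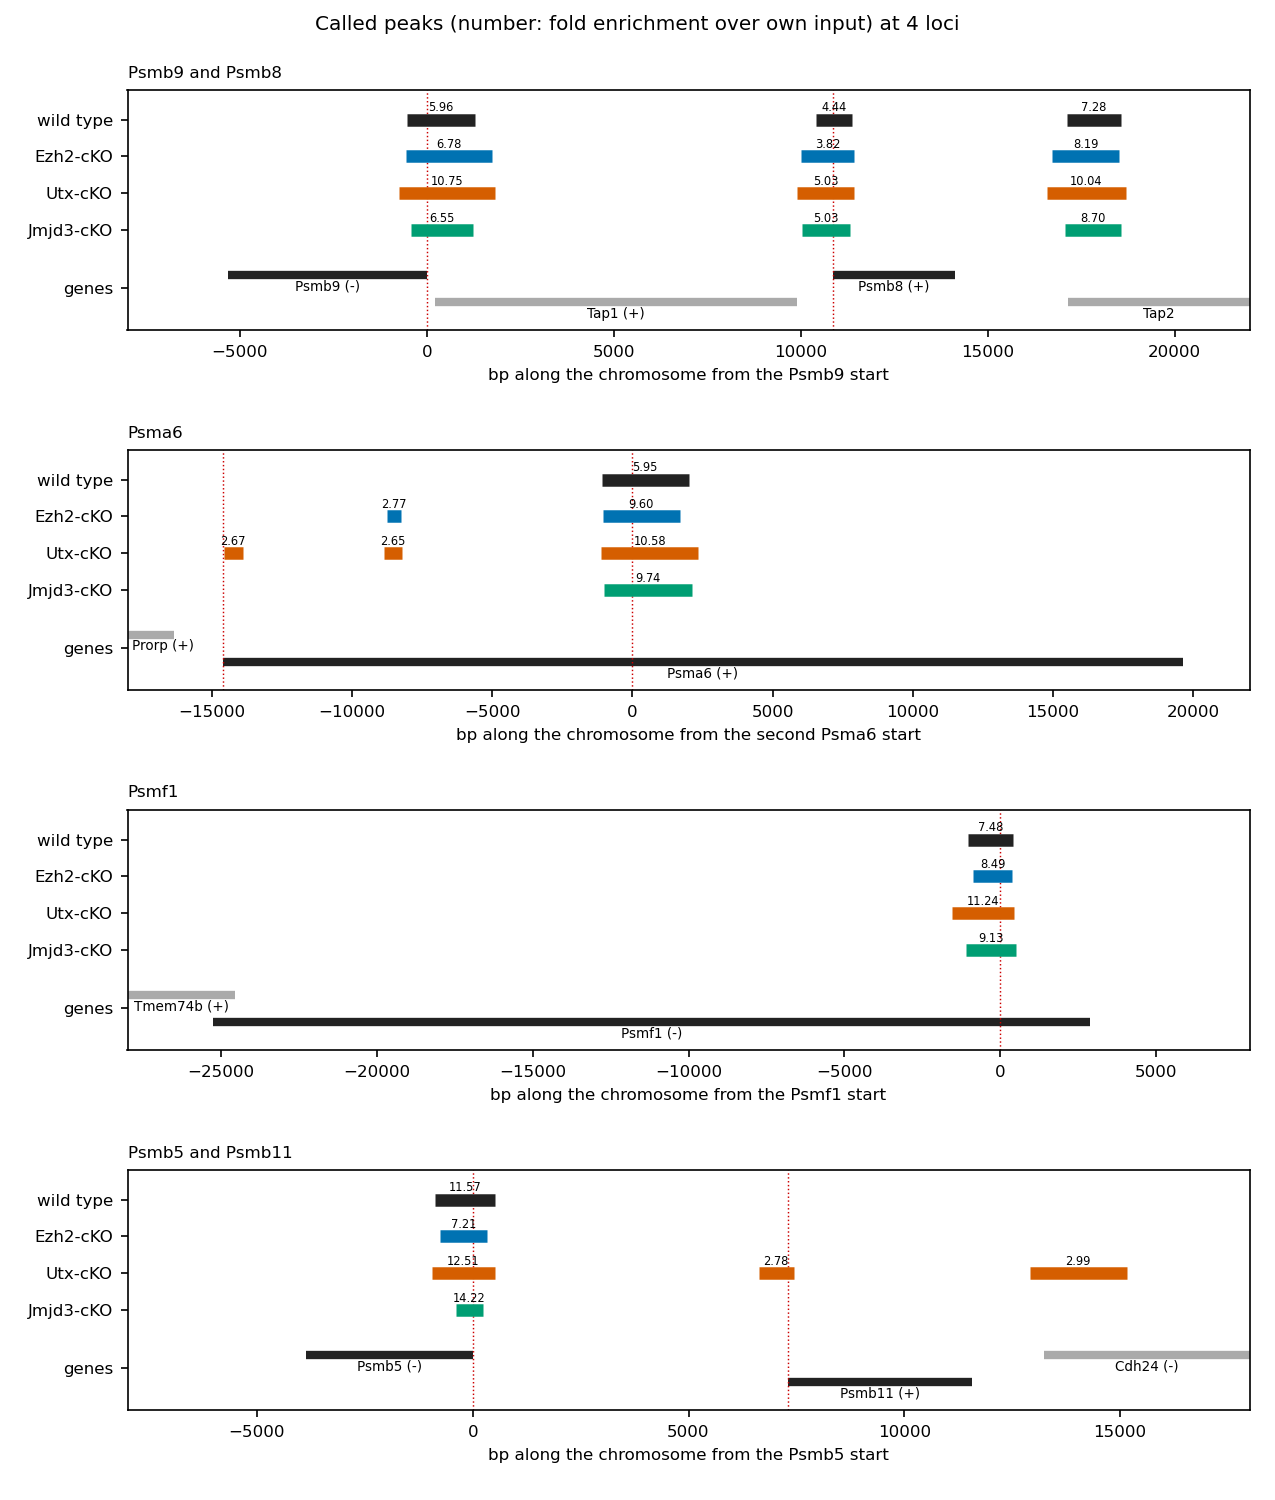
Called peaks (bars, 1 row per list, with the fold enrichment over the list's own input) along 4 loci, in bp from a named start, with gene extents below and RefSeq starts of members as dotted lines. Peaks lie over the inner Psma6 start, the Psmf1 start and the Psmb5, Psmb8 and Psmb9 starts in all 4 lists, and over the Psmb11 start in Utx-cKO alone.

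All 7 beta-ring genes were marked in every list, with median percentiles of 61.4, 62.8, 65.3 and 60.1. Psmb5, Psmb6 and Psmb7 carry the 3 catalytic sites. Psmb5, the chymotrypsin-like subunit and the main target of proteasome drugs, stood at 94.3, 49.96, 83.3 and 91.2. Its peak measured 1400, 1074, 1463 and 640 bp, so that the Jmjd3-cKO peak was the shortest of the 4 while high in its list. Psmb6, the caspase-like subunit, stood low at 31.6, 39.0, 35.3 and 37.9, with peaks of 1706, 1453, 2388 and 1454 bp. Psmb7, the trypsin-like subunit, stood at 35.0, 60.9, 65.3 and 37.2, with peaks of 2731, 1861, 2802 and 2401 bp. The catalytic subunits thus did not share 1 level, although they work in the same ring.

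Among the structural beta subunits, Psmb2 and Psmb1 had the longest wild-type peaks of all members. Psmb1 had 5265, 4911, 5044 and 4936 bp, and its peak also lay near an end of Tbp, the TATA-binding protein gene. Psmb2 had 6160, 2660, 6262 and 3718 bp, long in wild type and Utx-cKO and shorter in the other lists. Psmb4 had 1513, 1547, 1554 and 1356 bp, short and close together in all lists. Psmb3 had 1878, 1744 and 1859 bp in wild type, Ezh2-cKO and Jmjd3-cKO but 11522 bp in Utx-cKO. In the other lists a separate peak, 3602 bp in wild type, lay over the neighbouring Pcgf2, a Polycomb gene whose end is 1000 bp from the Psmb3 start, and in Utx-cKO the caller gave 1 peak over both.

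The 3 immune subunits were marked in all 4 lists, beside 60.4% of all protein-coding genes. In each list the Wilson interval for 3 of 3 ran from 43.9% to 100%. It thus included the all-gene shares of 62.3%, 64.5%, 67.7% and 63.0%. Peaks enriched at least 4-fold were present at 51.2%, 53.8%, 58.1% and 54.9% of all genes. They were present at 3, 2, 3 and 3 of the immune subunits, the exception being Psmb8 in Ezh2-cKO with 3.82. The median percentile of the immune subunits was 38.4, 44.5, 52.4 and 34.8, lower in each list than that of the constitutive members. With 3 genes this is a description of these 3. Psmb8, which takes the place of Psmb5, stood at 22.6, 15.1, 21.1 and 21.1, and its peak measured 967, 1429, 1534 and 1283 bp. The wild-type peak was the shortest of all marked members. Psmb9, which takes the place of Psmb6, stood at 43.1, 44.5, 70.5 and 34.8, with 1839, 2287, 2574 and 1670 bp. Psmb10, which takes the place of Psmb7, stood at 38.4, 45.2, 52.4 and 54.0, with 2664, 3084, 3806 and 2802 bp.

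Set side by side, the immune subunit ranked below its constitutive partner in all 4 lists only for Psmb8 against Psmb5. Psmb9 ranked above Psmb6 in 3 of 4 lists, and Psmb10 above Psmb7 in 2 of 4. The immune peak was the longer of the pair in 3, 4 and 3 of 4 lists for Psmb8, Psmb9 and Psmb10. The order by rank was thus not the same in the 3 pairs, while by length the immune peak was the longer in most lists.

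Psmb8 and Psmb9 flank Tap1, a subunit of the peptide transporter of the MHC class I pathway, on chromosome 17. The Psmb9 start lies 226 bp from the start-side end of Tap1, and 1 peak covered both in every list, so its values belong to the pair. The Psmb8 start lies 970 bp past the other end of Tap1. Peaks at Psmb10 covered nearly the whole gene, which is 2665 bp long: in wild type the peak ran 2660 bp downstream of the start and 3 bp upstream, and it also lay near ends of Ctrl and Lcat. The windows of the 3 immune genes are printed beside those of Psmb5 and Psmb6 to show their CpG, in capitals, as above. They are chr14:54617946-54618245 (minus strand) for Psmb5, chr11:70525107-70525406 (plus) for Psmb6, chr17:34197945-34198244 (plus) for Psmb8, chr17:34187281-34187580 (minus) for Psmb9 and chr8:105938343-105938642 (minus) for Psmb10.
Psmb5 start: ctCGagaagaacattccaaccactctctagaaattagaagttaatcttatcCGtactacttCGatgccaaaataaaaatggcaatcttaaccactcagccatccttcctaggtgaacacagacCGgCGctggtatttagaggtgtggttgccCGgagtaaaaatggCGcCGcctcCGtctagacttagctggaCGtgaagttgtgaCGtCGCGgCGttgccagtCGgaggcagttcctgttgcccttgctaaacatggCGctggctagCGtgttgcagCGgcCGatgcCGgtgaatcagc
Psmb6 start: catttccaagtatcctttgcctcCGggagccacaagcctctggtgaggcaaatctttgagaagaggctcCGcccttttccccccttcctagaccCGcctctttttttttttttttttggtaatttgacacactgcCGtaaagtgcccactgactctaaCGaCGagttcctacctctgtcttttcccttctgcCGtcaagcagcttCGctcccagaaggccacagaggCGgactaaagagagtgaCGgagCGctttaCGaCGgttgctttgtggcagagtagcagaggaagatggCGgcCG
Psmb8 start: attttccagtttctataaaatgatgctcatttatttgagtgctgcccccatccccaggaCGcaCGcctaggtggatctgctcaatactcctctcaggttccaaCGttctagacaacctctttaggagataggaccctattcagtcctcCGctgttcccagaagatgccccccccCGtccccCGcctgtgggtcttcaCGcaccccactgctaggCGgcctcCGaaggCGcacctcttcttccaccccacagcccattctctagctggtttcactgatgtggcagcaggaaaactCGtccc
Psmb9 start: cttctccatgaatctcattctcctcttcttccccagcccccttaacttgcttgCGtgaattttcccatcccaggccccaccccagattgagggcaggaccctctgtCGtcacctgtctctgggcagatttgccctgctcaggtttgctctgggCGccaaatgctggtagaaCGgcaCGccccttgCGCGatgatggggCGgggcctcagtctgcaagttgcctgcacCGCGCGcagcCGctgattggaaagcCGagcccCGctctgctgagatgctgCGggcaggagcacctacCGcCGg
Psmb10 start: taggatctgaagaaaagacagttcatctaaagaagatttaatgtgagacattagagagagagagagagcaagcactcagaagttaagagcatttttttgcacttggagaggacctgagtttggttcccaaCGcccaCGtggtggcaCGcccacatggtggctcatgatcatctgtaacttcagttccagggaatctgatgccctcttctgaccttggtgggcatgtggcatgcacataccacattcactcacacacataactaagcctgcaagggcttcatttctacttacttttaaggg
They hold 20, 15, 11, 17 and 3 CpG. No promoter window was at hand for Psmb7.

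The tissue-specific subunits were the clearest exception among core genes. Neither was marked in wild type or Jmjd3-cKO. Psma8, the testis subunit, had a peak in Ezh2-cKO alone, 258 bp long with a fold enrichment of 2.45 and a percentile below 1 (0.963). Psmb11, the subunit of thymic cortical epithelium, had peaks in Utx-cKO alone. An 816-bp peak with a fold enrichment of 2.78 spanned its start at 54625310 on chromosome 14, and a 2249-bp peak with 2.99 lay past its far end, near Cdh24. The Psmb11 start lies 7315 bp from that of Psmb5, which had a peak in all 4 lists. The Psmb11 window (chr14:54625060-54625359, plus strand, CpG in capitals) holds 4 CpG.
Psmb11 start: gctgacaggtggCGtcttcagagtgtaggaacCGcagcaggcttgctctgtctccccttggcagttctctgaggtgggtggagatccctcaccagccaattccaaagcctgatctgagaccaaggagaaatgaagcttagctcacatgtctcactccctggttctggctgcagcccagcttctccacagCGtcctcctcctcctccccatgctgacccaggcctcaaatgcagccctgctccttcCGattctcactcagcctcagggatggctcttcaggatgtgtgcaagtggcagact
The Utx-cKO list is the longest of the 4. By fold enrichment the peak over the Psmb11 start was number 33295 of its 49405 peaks and would drop out of a list cut to the 27013 strongest peaks, the length of the Jmjd3-cKO list, while the peak near Cdh24 was number 25559 and would stay. The Psma8 peak was number 30281 of 33739 and would drop out. Psme2b, like Psmb11 poor in CpG with 2 in its window, had no peak in any list.

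The 6 ATPases of the base were marked in every list, with median percentiles of 64.1, 67.6, 70.7 and 54.9. Psmc2 had the longest peak of them, 5173, 5328, 5239 and 5385 bp, over a start 11 bp from the end of Dnajc2. Psmc6 stood at 86.8, 79.2, 88.4 and 91.1, but in Ezh2-cKO and Jmjd3-cKO this was a peak at its far end, near Styx. The peak over its start stood at 62.6 and 83.9 there. Psmc3 stood at 39.6, 69.2, 65.1 and 57.3, lowest in wild type.

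The 11 non-ATPase subunits, which form the lid and the scaffold and ubiquitin receptors of the base, had median percentiles of 77.4, 82.7, 73.7 and 71.4. Psmd6, a lid subunit, had the strongest wild-type peak of all members, with a fold enrichment of 12.89, yet a length of only 1256 bp. Its percentiles were 96.9, 94.4, 99.5 and 91.5, and its lengths in the knockouts 1365, 1310 and 1222 bp. Psmd1, a large scaffold subunit, stood at 90.1, 92.1, 97.3 and 80.2, and Psmd11, of the lid, at 94.8, 94.7, 96.0 and 82.0. Psmd4, a ubiquitin receptor, stood at 46.0, 78.4, 60.8 and 71.4 with peaks of 1368, 1442, 1906 and 1670 bp. Psmd13 stood at 36.3, 58.0, 50.8 and 58.7, lowest in wild type.

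The 3 chaperones that assemble the base were spread over the range. Psmd9 stood at 90.4, 75.4, 54.1 and 31.8, high in wild type and below the middle in Jmjd3-cKO. Psmd5 stood at 70.5, 81.2, 71.6 and 54.6. Psmd10, known as gankyrin, stood at 19.95, 13.996, 20.2 and 14.8, the lowest member in wild type. It lies on the X chromosome, where marked genes as a whole stood low, with median percentiles of 30.1, 26.8, 26.4 and 25.5. The part of the X chromosome in its rank was not tested.

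Of the activators, Psme1 and Psme2 form the interferon-induced cap of the core, Psme3 its nuclear relative, and Psme4 a separate large activator. Psme4 stood at 89.1, 96.7, 99.0 and 97.1, near the top of each list, with lengths of 2660, 2370, 2413 and 2542 bp. Psme1 stood at 37.2, 52.3, 55.5 and 58.3, with short peaks of 1127, 1009, 1530 and 1171 bp. Psme2 stood at 63.5, 52.9, 70.4 and 60.8, with 2771, 5114, 3586 and 3495 bp and an end of Rnf31, a ubiquitin ligase gene, 612 bp from its start. Psme3 stood at 65.3, 64.4, 66.6 and 74.4.

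The chaperones of the core work in pairs, Psmg1 with Psmg2 and Psmg3 with Psmg4. Psmg2 stood at 87.6, 94.3, 86.7 and 80.4, and Psmg1 at 62.1, 55.3, 58.7 and 70.8. Psmg3 stood at 33.3, 41.1, 56.2 and 34.3, and Psmg4 at 34.8, 53.7, 58.5 and 26.8. In each list Psmg1 and Psmg2 ranked above Psmg3 and Psmg4, Psmg1 by little in Ezh2-cKO and Utx-cKO. The 2 genes of no proteasome part were both marked in all lists: Psmc3ip stood at 34.3, 34.9, 49.3 and 19.1, and Psme3ip1 at 79.1, 91.0, 90.9 and 64.4. Psmc3ip had a short wild-type peak of 1303 bp and Psme3ip1 a long one of 4378 bp.

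The peaks sat on nearly all of the known starts. Of the 36 constitutive members with a known start, 35 had a peak over it in each list, and the peak at Psmd8 ended 123, 107, 60 and 65 bp short of the start. Counted by window, a start lay inside a peak for 55.6%, 57.8%, 61.0% and 57.1% of all 21263 promoter windows. In wild type it did for 94.9% of the 39 constitutive windows. Over those 35 members the peak reached a median of 653, 629, 734 and 642 bp upstream and 1242, 1350, 1562 and 1230 bp downstream. It reached further downstream than upstream in 31, 31, 28 and 31 of 35. This shape was not particular to them: over all marked genes whose strongest peak spanned a start, 78.4%, 77.9%, 77.4% and 78.4% reached further downstream.

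**Figure D3:**
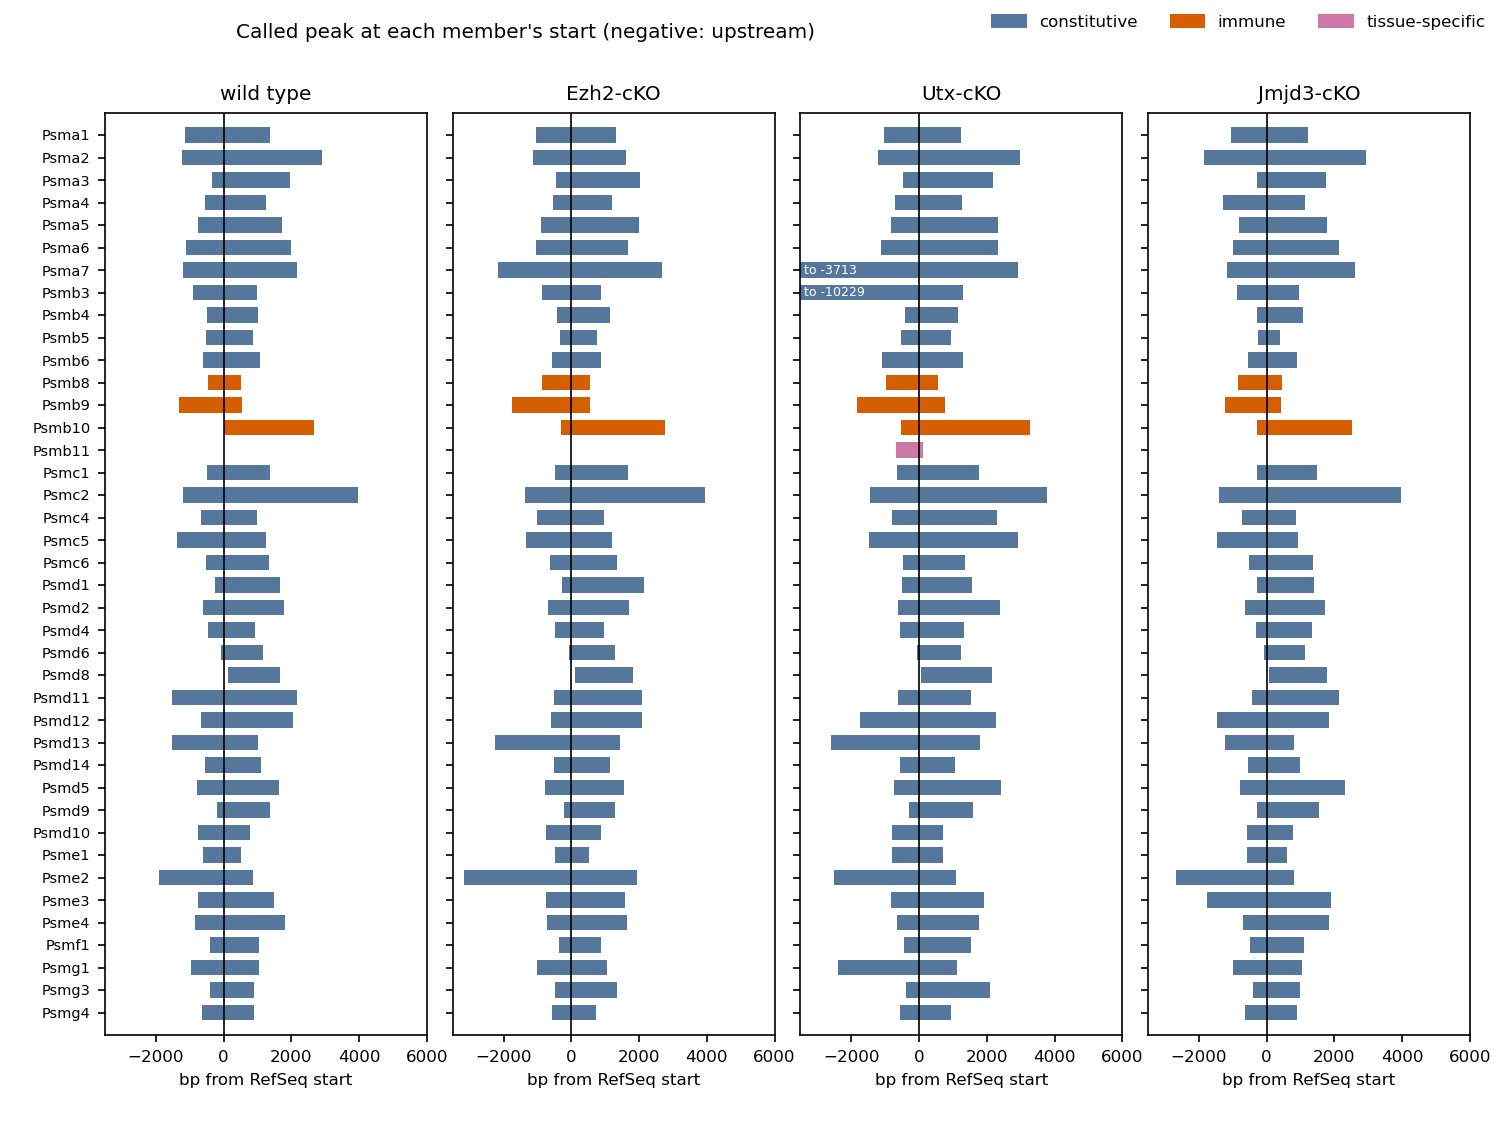
Extent of the called peak at the RefSeq start of each member (x axis, bp from the start, negative upstream), 1 panel per list. Bars cross 0 for all constitutive members shown except Psmd8, most reach further right than left, Psmb10 reaches 3 bp left of 0 in wild type, and Psmb11 has a bar in Utx-cKO alone.

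Constitutive members with another gene close by had the longer peaks by median. This split was made after the values were seen, and it was not made over all genes. Whether the difference is particular to these members was therefore not tested. In 9 constitutive members the end of another protein-coding gene lay within 1 kb of the start, and 8 of them had a peak over the start in each list, with a median length of 2687.5, 3221, 4408.5 and 2955 bp. In the other 27 members it was 1851, 1985, 2267 and 1771 bp. Upstream the median reach was 1207, 1360, 1989 and 1345 bp against 610, 566, 633 and 556 bp. Downstream it was 1239.5, 1531.5, 2363 and 1052 bp against 1353, 1328, 1538 and 1351 bp, so that only the upstream reach was the greater in all 4 lists.

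The median length of the strongest peak at marked constitutive members was 2131, 2161, 2450 and 2163 bp, beside 1951, 2025, 2351.5 and 1948 bp over all marked genes. Against wild type the median ratio of lengths was 1.02, 1.17 and 0.99 for the Ezh2, Utx and Jmjd3 knockouts, beside 1.04, 1.21 and 1.02 over all genes marked in both lists. The knockout peak was the longer at 22, 32 and 19 of 41 constitutive members, which is 53.7%, 78.0% and 46.3%. Over all genes it was the longer at 60.0%, 79.3% and 54.5%. The constitutive members were thus near the whole in Utx-cKO and a little under it in the other knockouts. All 3 immune members had a longer peak in Ezh2-cKO and Utx-cKO than in wild type, and 2 of 3 in Jmjd3-cKO.

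**Figure D4:**
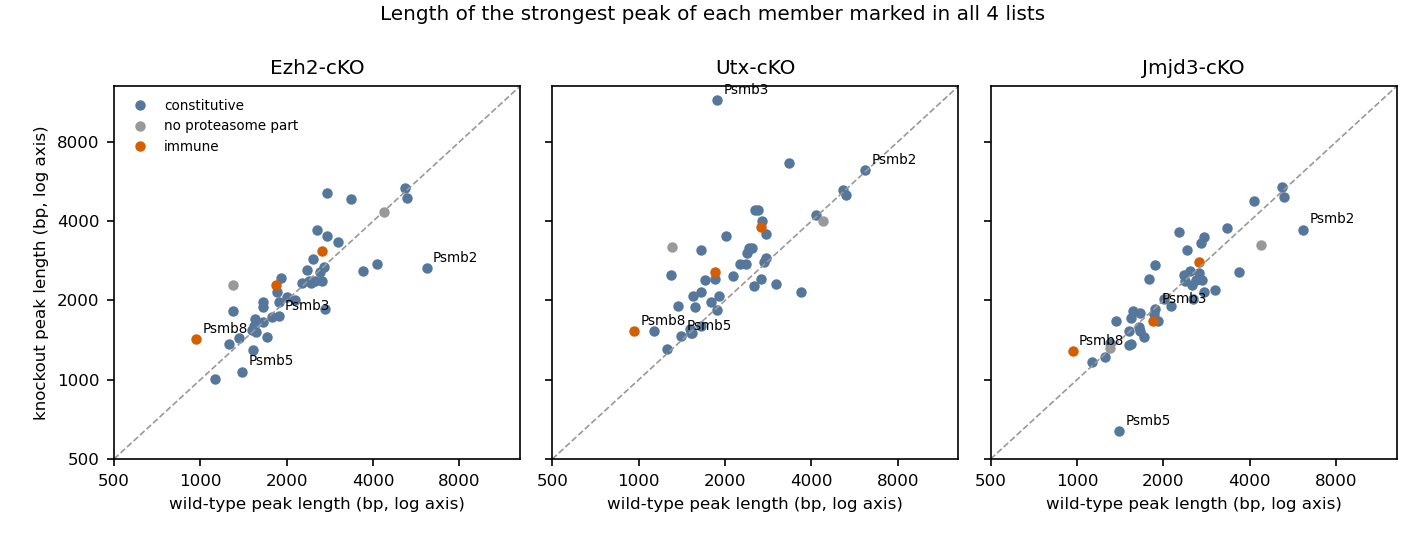
Length of each member's strongest peak in a knockout (y axis, bp, log scale) against wild type (x axis, bp, log scale) for members marked in all 4 lists, with the dashed line at equal length. Most points lie above the line in Utx-cKO, Psmb3 stands at 11522 bp there, and Psmb5 stands at 640 bp in Jmjd3-cKO.

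By role, the median length of the beta ring was 1878, 1744, 2802 and 1859 bp, and all 7 of its peaks were shorter in Jmjd3-cKO than in wild type. In Ezh2-cKO 6 of 7 were shorter, and in Utx-cKO 6 of 7 were longer, as were 79.3% of all genes in Utx-cKO. The median ratio of beta-ring lengths to wild type was 0.8517, 1.0271 and 0.879165 in the Ezh2, Utx and Jmjd3 knockouts. Over all genes it was 1.04, 1.21 and 1.02. The Utx-cKO median of 2802 bp was the peak of Psmb7, which measured 2731 bp in wild type. The alpha ring had 2498, 2559.5, 2482 and 2503.5 bp, and at the starts of all 7 genes 2516, 2738, 3176 and 2592 bp, and the ATPases 1862, 2071, 2761.5 and 2090.5 bp. The non-ATPase subunits had 2387, 2432, 2150 and 2032 bp, lowest in Jmjd3-cKO, with 8 of 11 shorter there than in wild type. Other roles went the other way there. The Jmjd3-cKO peak was the longer at 4 of 6 alpha-ring genes and 4 of 4 core chaperones. It was also the longer at 3 of 4 activators and 2 of 3 base chaperones, and the ATPases were split 3 to 3. Over all genes the peak was the longer at 60.0% in Ezh2-cKO and 54.5% in Jmjd3-cKO. No replicate bears on these differences.

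Ranks moved between lists about as much as those of other genes. Over the 44 constitutive and immune members marked in all 4 lists, the median gap between a member's highest and lowest percentile among genes marked in all 4 was 20.8, beside 17.9 over all such genes. The longest peak was a median of 1.47 times the shortest, beside 1.45. The largest gaps at peaks over a start were at Psmd9 (61.1), Psmb5 (47.4) and Psmd12 (43.1); Psma3 had a gap of 56.4 at its gene-table end. In all 4 lists 8 of the 44 stood above 75 in that ranking: Psma7, Psmc6, Psmd1, Psmd3, Psmd6, Psmd11, Psme4 and Psmg2. Psmc6 owes this to its far-end peak, since its start peak in Ezh2-cKO stood at 60.2, while the start peak of Psma3 stood between 89.6 and 94.5. Of all genes marked throughout, 13.7% did. Psmb8 and Psmd10 stood below 25 in all 4 lists, as did 16.4% of all such genes.

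Promoter windows were found for 43 of the 51 members, and 39 windows belonged to 36 constitutive ones. Their median CpG number was 19, beside 13 over all 21263 windows, 22 in windows whose start a wild-type peak spanned and 3 in the rest. The share of starts inside a peak followed this number in all genes. In wild type it was 5.42% with 0 to 4 CpG, 29.2% with 5 to 9, 67.8% with 10 to 14, 83.9% with 15 to 19 and 94.3% with 20 or more. Every constitutive window except the outer one of Psma6 held at least 10 CpG. Psmb10 went the other way: its 3 CpG put it in the lowest class, of which 4.18% had a start inside a peak in all 4 lists, as Psmb10 did. In wild type, however, the Psmb10 peak reached only 3 bp upstream of the start and so left out most of the window. In the Ezh2, Utx and Jmjd3 knockouts it reached 316, 530 and 292 bp upstream, and in every list it reached much further downstream.

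**Figure D5:**
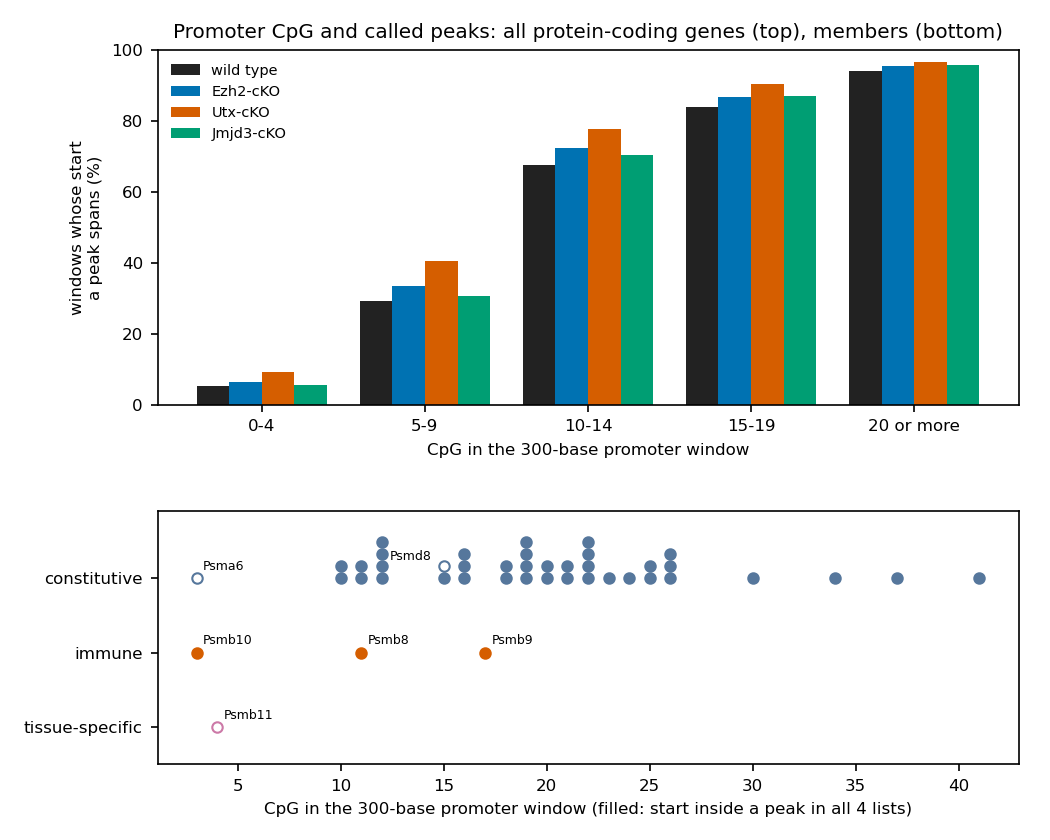
Top, share of promoter windows of all protein-coding genes whose start lies inside a peak (y axis, %), by CpG number of the 300-base window (x axis) and list. Bottom, CpG number of each constitutive, immune and tissue-specific member's window, filled where the start lies inside a peak in all 4 lists: the open points are Psmb11, the outer Psma6 start and Psmd8, and Psmb10 is filled at 3 CpG.

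The windows were searched for 7 motifs on both strands, and a match is a string of letters, not a site of binding. CCGGAA, the core letters of ETS factors, was in 21 of the 39 constitutive windows (53.8%), beside 18.7% of all windows and 28.9% of those with a start inside a wild-type peak. The inner Psma6 window held 4 matches. The palindromic element of nuclear respiratory factor, whose letters are not spelled out, was in 7 (17.9%), beside 6.38% and 10.7%. GGGCGG, of Sp1, was in 23 (59.0%), beside 46.2% and 69.5%. CCAAT, of NF-Y, was in 12 (30.8%), beside 38.2% and 37.1%.

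The antioxidant response core TGACNNNGC, through which Nfe2l1 is known to raise proteasome genes when the proteasome is blocked, was in 6 constitutive windows (15.4%), beside 13.0% and 14.4%. Psmb5 held it as TGACGTCGC, 47 to 39 bases before its start, and Psmb6 as TGACGGAGC, 9 to 1 bases before. In the printed windows some of these letters are capitals because they form a CpG. The core of the interferon-stimulated response element was in 5 constitutive windows (12.8%), beside 3.35% and 2.69%, and in none of the immune windows. The 5 were those of Psmb3, Psmd4, Psmd9, Psme1 and Psmg4. Psme1 belongs to the interferon-induced cap and was counted here as constitutive, as was Psme2. The gamma-activated core TTCNNNGAA was in 2 constitutive windows (5.13%), beside 7.69% and 6.16%. Psmb8 held it as TTCCCAGAA, 97 to 89 bases before its start.

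Other large housekeeping complexes were marked as well. All 9 listed genes of the COP9 signalosome and all 13 of eIF3, which share a subunit architecture with the proteasome lid, were marked in every list. So were all 8 listed genes of the CCT chaperonin, beside 60.4% of all protein-coding genes. Their median percentiles were 57.8, 76.3, 71.4 and 69.2 for COP9, 82.4, 83.1, 86.1 and 75.5 for eIF3, and 75.2, 75.7, 75.4 and 54.7 for CCT. Of 20 other genes of the pathway, which code for further subunits, chaperones, shuttles and regulators, 19 were marked in every list, with median percentiles of 83.2, 83.3, 83.8 and 79.0. Ecpas, a proteasome adaptor, had no peak within 2 kb of its outer ends, but 3, 3, 2 and 3 peaks over the gene or within 2 kb of it, the strongest with fold enrichments of 14.97, 21.5, 24.5 and 28.8. Nfe2l1, the regulator named above, stood at 42.8, 40.7, 59.5 and 43.0, and Akirin2, needed for the import of proteasomes into the nucleus, at 99.5, 96.0, 97.4 and 97.1. No test of a difference between the proteasome genes and these complexes was made.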

How the data were processed

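The 4 peak lists, 1 per genotype, were analysed. The submitters' processing notes name Bowtie2 and ChIPseeker without a version, and also MACS2, deepTools 2.4.1, HOMER 4.10 and FastQC 0.11.5. No source used here states the genome build. Broad peaks were called by the authors with MACS2 2.1.2, per the file headers, in each library against its own input at a q of 0.05, with no more than 1 duplicate fragment kept at a position. The deposited lists give each peak's length in bp, its pileup as a coverage signal (not used between lists), its −log10 p and −log10 q, and its fold enrichment, a ratio to the local input.

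Gene positions are those of RefSeq on GRCm38.p6. The build was checked by moving the genes: the wild-type list marked 13639 genes in place and 4837 and 4790 after shifts of 20 kb to either side. A gene's value is that of its peak with the highest fold enrichment within 2 kb of either outer end. Starts and strands came from the RefSeq promoter table, which matched 43 of the 51 members. The marking step was tested on simulated peaks at long genes with no other gene end nearby. It found 100 of 100 genes given a peak in a search of all 21887. That test does not cover short genes or peaks shared with a neighbour. The members and lists were chosen with earlier results of these data known. Of 21 other pathway genes, 20 matched the table (Paaf1 did not).

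Named genes were the immune and tissue-specific members, the subunits they replace, activators, inhibitor and core chaperones, members unmarked in a list, and the 4 longest, 4 shortest, 4 highest and 4 lowest by fold enrichment in wild type among the rest. Psma3, Psmb3, Psmc6, Psmd3, Psmd5, Psmd8, Psmd12, Ecpas, Nfe2l1 and Akirin2 were named after their values were seen. The planned comparison of protein sequences was not run, since no protein table was used here. Alternatives were stricter peaks (q of 0.001 or less, fold enrichment of 4 or more), equal list lengths, windows of 1 and 5 kb, RefSeq starts only, a peak anywhere over the gene, autosomes only, only genes of the proteasome, merging of peaks within 3 kb, the peak nearest the start, members with no other gene end near the peak, and other rankings. Scripts ran in Python 3.11.15 with pandas 2.3.3, numpy 2.4.6, matplotlib 3.10.9 and scipy 1.17.1.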

Additional observations from a re-analysis of the deposited data

How the results depend on the processing

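Across the alternatives, 96 of 100 recomputed values stayed within 1.5 times the main count or, for medians, within the interval of the main value. For counts this limit is wide: 46 of 51 cannot rise 1.5 times, and a fall from 3 to 2 immune members stays within it. The tally is therefore a weak check of the counts. Of all 51 members, 46 to 48 were marked in wild type and 44 to 49, 46 to 49 and 46 to 48 in the Ezh2, Utx and Jmjd3 knockouts. By RefSeq starts it was 41, 41, 42 and 41 of the 43 members with a start; leaving out the genes of no proteasome part or the sex chromosomes took out members marked in the main count. The immune members stayed at 3 except for 2 in Ezh2-cKO. The median length at constitutive members ranged over 1891 to 2363 bp, 2012 to 2366 bp, 2346.5 to 2966 bp and 1824 to 2283 bp in the same order. The other 4 values all came from ranking a member's peak among all peaks of its list in place of marked genes. The constitutive median then was 86.8 in wild type and 87.2, 90.9 and 80.6 in the knockouts, where the median over all marked genes was itself 77.5, 80.9, 86.5 and 76.3. The ranking among genes marked in all 4 lists was added after the data were seen. No paired analysis was possible because each genotype has 1 immunoprecipitated library and no test was made. No alternative that leaves out a replicate could be run for the same reason. Peak calling depends on depth, so a peak missing from a list was not detectable at that depth and threshold, and peaks over closely spaced starts belong to all of them.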

Other observations

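Genes of antigen presentation, in which the immune subunits act, and of the interferon pathway were read in the same lists. Of 9 such genes 8 were marked in every list, all but Ciita, beside 60.4% of all protein-coding genes. Their median percentiles were 43.7, 50.04, 61.3 and 61.6 in wild type and the Ezh2, Utx and Jmjd3 knockouts. Tap1, which is among them, shares its peak with Psmb9. Tap2, the other transporter subunit, stood at 62.5, 61.6, 63.5 and 57.8, and B2m, the light chain of MHC class I, at 40.5, 59.1, 61.2 and 70.9. The regulators Nlrc5 and Irf8 stood low, Nlrc5 at 4.88, 15.2, 27.5 and 26.7 and Irf8 at 2.21, 11.1, 11.8 and 19.3. Irf1 stood at 44.2, 55.6, 48.2 and 65.3. These lists differ in length, and no rank difference between genotypes was tested.

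RefSeq lists 6 pseudogenes with a member symbol. Psmb6-ps had a peak in wild type, Ezh2-cKO and Utx-cKO, of 1350, 1446 and 1536 bp, which also lay near an end of Hdac6. Psmb5-ps had a 388-bp peak with a fold enrichment of 2.73 in Utx-cKO alone. Reads from near-identical copies cannot be told apart in a peak list.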
